A study of Homo sapiens with 16 samples.

Results

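The cytosolic ribosomal protein genes encode the protein part of the ribosome that works in the cytosol. They were taken by name: every gene called RPL or RPS followed by digits and, where present, a final A or X, with RPLP0, RPLP1, RPLP2 and RPSA added. The rule gave 77 genes among the 40888 genes with a count and the 58302 genes listed, of which 46 encode large-subunit proteins and 31 encode small-subunit proteins. The rule reads names alone, and 77 of 77 had enough reads to be tested.

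The libraries are polyA RNA-seq from VCaP, a human prostate cancer cell line that depends on the androgen receptor. Vc cells (VCaP_ctrl) had been kept for 4 months in ethanol, and Ver cells (VCaP_enz) for 4 months in 1 µM enzalutamide, a drug that blocks the androgen receptor. All cells were then deprived of hormone for 48 h or more, with charcoal-stripped serum in a medium that lacked phenol red. Each line was treated for 24 h as control, with 1 nM dihydrotestosterone (DHT, the androgen), with 1 µM enzalutamide, or with both compounds, giving 8 groups of 2 libraries. Vc and Ver are 1 line each, and the labels do not say whether the 2 libraries of a group came from separate cultures, so p-values measure only the spread between these libraries, which may be technical. The library descriptions carry lane L008 for every Vc library and L002 for every Ver library, so line and lane cannot be told apart.

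Ribosomal proteins bind ribosomal RNA in the nucleolus and leave the nucleus as large and small subunits. The large subunit joins amino acids and passes the new chain through the exit tunnel, while the small subunit reads the message. Cells make these proteins in matched amounts, and most of their messages begin with a terminal oligopyrimidine (TOP) tract: a C at the first base, followed by a run of C and T. Through this tract the growth kinase mTOR and the RNA-binding protein LARP1 control how well such messages are translated and how long they last. In prostate cells the androgen receptor, switched on by DHT, drives luminal genes such as KLK3, and growth depends on ribosome supply.

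The start sites show what the genes have in common apart from their names. Of the 62 genes with a start window in the RefSeq table, 46 (74.2%) had a start base C followed by at least 4 pyrimidines, against 1404 of 27305 symbols with a window (5.14%). A run of at least 6 after the C was held by 36 (58.1%), against 2.68% of all symbols. When the run was allowed to begin within 10 bases on either side of the start, 57 of 62 (91.9%) held one, against 38.4%. Only the coding strand was searched, and a symbol counted if any of its listed starts held the run. The 10 windows printed here hold 15 bases before the start and 15 from it, 5′ to 3′, with the C and its run of pyrimidines in capitals. They were picked to show genes with a large fall under DHT (RPSA, RPL36A, RPL24, RPL27A, RPL4, RPL11), genes with a small fall (RPLP0, RPLP1), 1 gene that was not called (RPL10), and 1 gene whose window holds no such run and carries no capitals (RPS4X).
RPSA: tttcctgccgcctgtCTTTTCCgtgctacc
RPL36A: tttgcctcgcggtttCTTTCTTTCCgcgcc
RPL24: ttcccatgattctctCTTTCTTTTCgccat
RPL27A: ttggcgaaggccttcCTTTTTCgtctgggc
RPL4: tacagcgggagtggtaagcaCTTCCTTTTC
RPL11: cggaagctccgctttCTCTTCCTgctctcc
RPLP0: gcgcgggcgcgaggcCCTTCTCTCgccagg
RPLP1: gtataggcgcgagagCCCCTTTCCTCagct
RPL10: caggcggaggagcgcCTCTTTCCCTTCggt
RPS4X: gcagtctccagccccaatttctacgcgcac

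In the GRCh38.p14 assembly the windows lie at chr3:39406705-39406734 (RPSA, plus strand), chrX:101390996-101391025 (RPL36A, plus), chr3:101686704-101686733 (RPL24, minus) and chr11:8682777-8682806 (RPL27A, plus). The next 4 lie at chr15:66504841-66504870 (RPL4, minus), chr1:23691791-23691820 (RPL11, plus), chr12:120201097-120201126 (RPLP0, minus) and chr15:69452803-69452832 (RPLP1, plus). The last 2 lie at chrX:154398362-154398391 (RPL10, plus; 1 of its 3 listed starts) and chrX:72277234-72277263 (RPS4X, minus). Each window spans the end of the promoter and the first bases of the 5′ untranslated part of exon 1. In RPL4 the run begins 5 bases after the listed start. A run of letters is a description and not a measured site of control. With DHT, where 22.5% of all genes tested fell in Vc and 22.9% in Ver, 43 and 39 of the 46 genes with the run at the start fell (median log2 change -0.38 and -0.33), as did 16 and 15 of the 16 genes whose listed start lacks it (-0.39 and -0.38) and 15 and 14 of the 15 genes with no window (-0.39 and -0.39), so genes of each kind fell.

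Gene counts summed to between 8155244 and 13273523 per library, and the 77 genes held 404539 to 701272 of them. Up to 50.6% of counted reads lay in no gene and 7.09% to 8.55% were ambiguous. The 8 prostate luminal markers summed to 3427 to 9399 CPM (counts in every 1000000 of the library, scaled for library size and composition by TMM), whereas 8 stromal and endothelial markers summed to 2.87 to 84.8 CPM and 6 immune markers to 0.357 to 2.09 CPM. The label of a prostate luminal line was therefore met by the sums of its markers. KLK2 alone held 2031 to 6196 CPM of the luminal sum. Single markers did not all follow the sums: in Ver control the stromal gene LUM (49.6 to 57.2 CPM) was above KLK3 (36.9 to 39.2). The same held in Ver with enzalutamide, and in the other groups LUM was below KLK3. For 50 of the 77 genes some exon bases overlap another annotated gene, and for 20 the overlap is over 10%, as for RPL10 (55.5%, with DNASE1L1 among others), RPS10 (39.4%, the RPS10-NUDT3 read-through gene) and RPL17 (35.3%). Pseudogenes named after the 77 genes held 2.15 to 2.43 counts for every 100 counts of the genes themselves, and how the counting split reads between near-identical copies makes single values less certain than the group.

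Levels ranged widely between the genes. Averaged over the 16 libraries, 71 of 77 genes were at 100 CPM or more, the median was 478.2 CPM, and the 10 highest took 35.9% of the total. RPLP0, the base of the P stalk, was highest at 3127 CPM. Per kilobase of the shortest principal transcript, the leaders were RPS18 with 2623 CPM per kb, RPLP0 with 2567, RPS19 with 2037, RPL13A with 1910 and RPL19 with 1502. The lowest were RPL17 (11.4 CPM per kb), RPL36A (17.6), RPS10 (17.6), RPS23 (18.7) and RPL26 (34.6). RPL17 and RPS10 are among the genes with over 10% of exon bases overlapping another gene. Genes above that limit had a median of 482.5 CPM per kb, against 661.8 for the rest. The part of the overlap in these levels was not tested. With the union of all exons as the length, an alternative chosen after seeing the data, RPL13A ranked first, RPS18 second and RPS19 18th. RPL36A, RPL17, RPS10 and RPL26 were each under 30 CPM, so their changes carry wide errors.

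The share of all gene counts taken by the 77 genes fell with DHT in both lines. It was 5.57% ± 0.0346 (SD, n = 2) in Vc control libraries and 3.74% ± 0.0421 with DHT, 4.37% ± 0.0876 with both compounds and 5.73% ± 0.0333 with enzalutamide alone. In Ver it was 5.48% ± 0.101 in control, 3.70% ± 0.0916 with DHT, 4.48% ± 0.0131 with both compounds and 5.61% ± 0.184 with enzalutamide alone. The 4 DHT libraries (3.64% to 3.77%) did not overlap the 4 with both compounds (4.31% to 4.49%) or the 8 without DHT (5.41% to 5.75%), and the lines overlapped in control, with DHT and with enzalutamide. An exact permutation test of 2 against 2 libraries cannot give a two-sided p below 0.333, and none was run. In bulk RNA, a fall in every cell and a larger fall in some cells cannot be told apart. A share also falls when other genes take more of the counts, which it cannot tell from a loss of these messages.

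**Figure D1:**
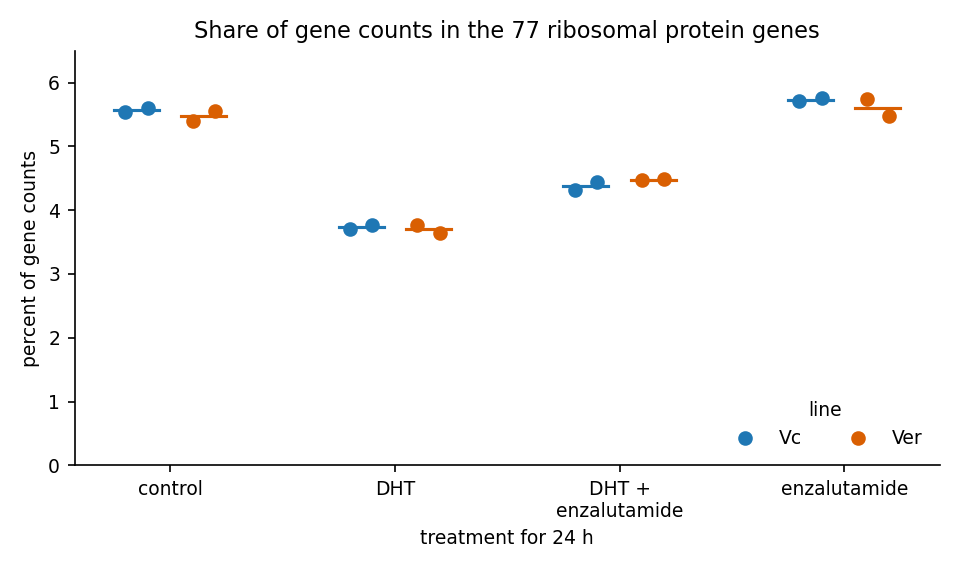
Percent of gene counts (y axis) in the 77 ribosomal protein genes for each of the 16 libraries (points), by 24 h treatment (x axis) and line (Vc blue, Ver orange), with group means as bars of n = 2. The 4 DHT libraries sit at 3.64% to 3.77%, below every other library, and the 4 with both compounds lie between them and the 8 libraries without DHT.

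Under DHT most of the ribosomal protein genes fell together. In Vc, 74 of 77 fell and 0 rose (edgeR's quasi-likelihood test with Benjamini-Hochberg adjustment over 22553 genes, adjusted p under 0.05), where 22.5% of all genes tested fell. The median log2 change was -0.39, a drop of 23.5%, against -0.04 over all genes tested. In Ver, 68 of 77 fell and 0 rose, where 22.9% of all genes fell, with a median of -0.36 against -0.04. The same gene fell in both lines for 67 of 77, against 17.0% of all genes tested, and for 70 of 77 the 4 DHT libraries of both lines lay below the 4 control libraries, against 20.3%. The large subunit had a median of -0.45 in Vc (44 of 46 fell) and -0.39 in Ver (41 of 46), and the small subunit -0.31 in both (30 and 27 of 31 fell). Scaling by library totals alone moved the median of all genes under DHT to -0.21 in Vc and -0.23 in Ver, and the members' medians to -0.56 and -0.55, with 77 and 76 lower; calls over all genes were then 3575 higher and 6814 lower in Vc against 4917 and 5070 with TMM, and 3300 and 7021 in Ver against 4772 and 5164.

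Among the genes with large falls, RPSA, which encodes a small-subunit protein also known as a laminin receptor, was at 833.9 and 833.9 CPM in Vc control and 502.0 and 522.2 with DHT. In Ver it was at 865.1 and 871.1 CPM in control and 487.5 and 494.4 with DHT. DHT and control libraries did not overlap in either line, and the log2 change was -0.70 ± 0.05 (SE; edgeR adjusted p = 4.6e-29) in Vc and -0.82 ± 0.05 (5.34e-35) in Ver. RPS2, at the entry channel for the message, went from 1138 and 1197 CPM to 709.7 and 719.5 in Vc and from 1056 and 1118 to 681.7 and 670.6 in Ver. RPL4, whose protein reaches into the exit tunnel, went from 1852 and 1809 CPM to 1117 and 1106 in Vc and from 1478 and 1514 to 924.9 and 939.9 in Ver. The log2 changes were -0.71 and -0.69 for RPS2 and -0.72 and -0.68 for RPL4, in Vc and Ver, each with an SE of 0.05 or less. RPL3, next to the centre where peptide bonds form, fell by 0.58 and 0.62 on the log2 scale. RPL27A fell by 0.68 in Vc and by 0.54 in Ver, and RPL24, at the face between the subunits, by 0.65 and 0.66. RPL36A, whose reads may be split with a near-identical copy, had the largest estimates, -0.85 ± 0.23 in Vc and -0.92 ± 0.24 in Ver, at 4.06 to 11.0 CPM in these libraries; its edgeR adjusted p rose from 0.000768 to 0.0786 in Vc without control library 2 and to 0.0565 without DHT library 1, and from 0.00048 to 0.106 in Ver without control library 2.

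**Figure D2:**
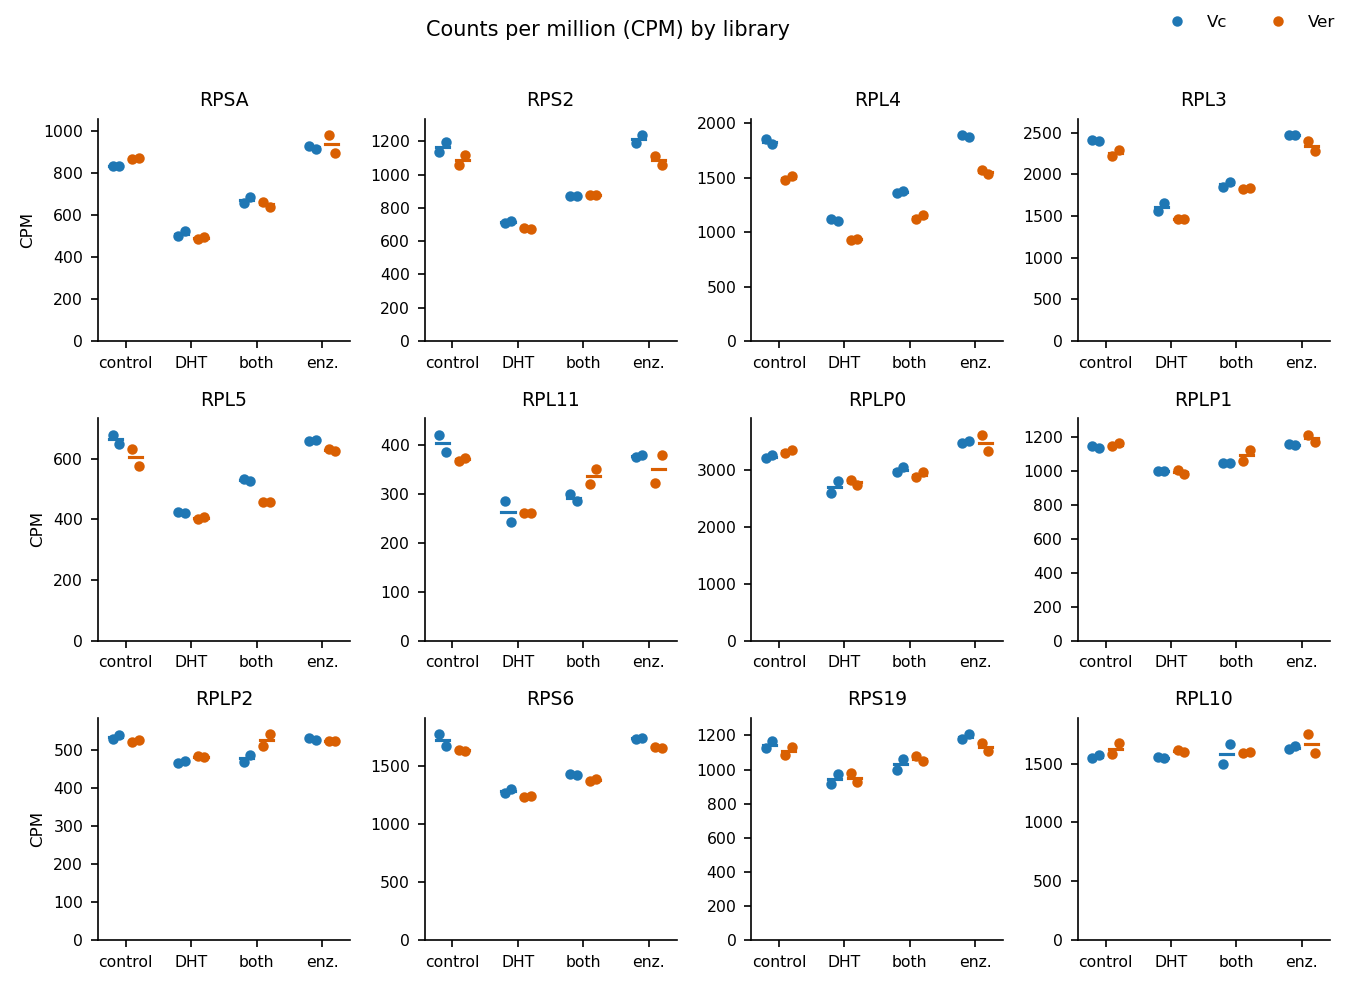
Level in CPM (y axes, each from 0) of 12 ribosomal protein genes in the 16 libraries (points), by treatment (x axes; both is DHT plus enzalutamide, enz. is enzalutamide) and line (Vc blue, Ver orange); bars are means of n = 2. RPSA, RPS2, RPL4, RPL3 and RPL5 drop with DHT and sit between DHT and control with both compounds, whereas RPL10 stays between 1497 and 1747 CPM.

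RPL5 and RPL11 bind 5S ribosomal RNA in a particle that, when left unbuilt, can hold back MDM2 and so protect p53. RPL5 was at 679.5 and 648.3 CPM in Vc control and 423.6 and 421.7 with DHT, and at 633.8 and 577.8 against 402.7 and 406.4 in Ver. Its log2 change was -0.65 ± 0.05 in Vc and -0.58 ± 0.05 in Ver. RPL11 was at 420.9 and 386.0 CPM in Vc control and 284.6 and 242.2 with DHT, and at 368.2 and 374.3 against 261.3 and 261.5 in Ver, a log2 change of -0.61 ± 0.06 and -0.51 ± 0.06. Neither gene's DHT and control libraries overlapped. Of the 9 ribosomal protein genes listed for Diamond-Blackfan anaemia, an inherited failure of red cell production, 8 fell in each line, beside 74 and 68 of all 77 members and 22.5% and 22.9% of all genes. Among them were RPS19, the gene most often affected, which fell by 0.28 and 0.22 on the log2 scale, and RPS26, which fell by 0.37 and 0.42. RPS4X, a small-subunit gene outside that list, fell by 0.28 and 0.35. RPS10 was at 8.21 to 11.4 CPM in control and DHT libraries and was not called, with -0.30 ± 0.18 in Vc and -0.01 ± 0.18 in Ver. With library totals alone it was called lower in Vc (-0.47, edgeR adjusted p = 0.0268).

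The P stalk recruits the elongation factors to the ribosome. Its 3 P proteins had small changes: RPLP0 went from 3212 and 3276 CPM to 2607 and 2813 in Vc and from 3315 and 3365 to 2831 and 2747 in Ver, a log2 change of -0.26 ± 0.04 in each. RPLP1 fell by 0.19 in Vc and by 0.22 in Ver, and RPLP2 by 0.19 and by 0.12. The RPLP2 call in Ver (edgeR adjusted p = 0.0366) was lost with DESeq2 size factors (0.0674), without the low-count filter (0.0995), in a fit of the 2 groups alone (0.114) and without any 1 of the 4 libraries (0.0778 to 0.159). RPL12, which sits at the base of the stalk, fell by 0.55 and 0.52. In the exit tunnel RPL39 fell by 0.22 in each line, against the 0.72 and 0.68 of RPL4. RPS6, the small-subunit protein phosphorylated by the kinase S6K, was at 1777 and 1679 CPM in Vc control and 1267 and 1302 with DHT, and at 1646 and 1630 against 1232 and 1242 in Ver, a log2 change of -0.43 ± 0.04 and -0.40 ± 0.04.

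RPL10, which helps complete the large subunit, had the smallest change of the 77 genes in Vc. It was at 1549 and 1568 CPM in Vc control and 1552 and 1545 with DHT, and at 1583 and 1672 against 1616 and 1601 in Ver. The libraries overlapped, and the log2 change was -0.01 ± 0.05 (edgeR adjusted p = 0.899) in Vc and -0.02 ± 0.05 (0.806) in Ver. With library totals alone it was called lower in both lines (edgeR adjusted p = 0.000279 and 3.82e-05). RPL10 is also the member with the largest share of exon bases in common with another gene, and the part of that overlap in its value was not tested. Besides RPL10, 9 genes were not called lower in both lines: RPL17, RPL41, RPS10, RPS27 and RPS27A, and 4 named after their values were seen, RPL26, RPL30, RPL38 and RPS13. Most of these 9 were called lower in both lines with library totals alone. RPL41, the shortest ribosomal protein, was at 357.8 and 388.9 CPM in Vc control and 300.6 and 346.6 with DHT, with a log2 change of -0.21 ± 0.10 that was not called (edgeR adjusted p = 0.103). It was called lower in Vc with library totals alone (-0.38, edgeR adjusted p = 0.0104), without the low-count filter (0.000429), in a fit of the 2 groups alone (0.000301) and without DHT library 2 (-0.31, 0.00112). In Ver its call (-0.27, edgeR adjusted p = 0.0345) was lost with a replicate block (0.0708), with DESeq2 (0.058) and without any 1 of the 4 libraries (0.101 to 0.193). Over the 77 genes the DHT changes in Vc and in Ver, which share no library, had a Pearson's r of 0.82 and a Spearman's rho of 0.81; the points come from 1 fit with a shared estimate of spread. The DHT change in Vc and the log2 mean level had r = 0.20 and rho = 0.06.

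**Figure D3:**
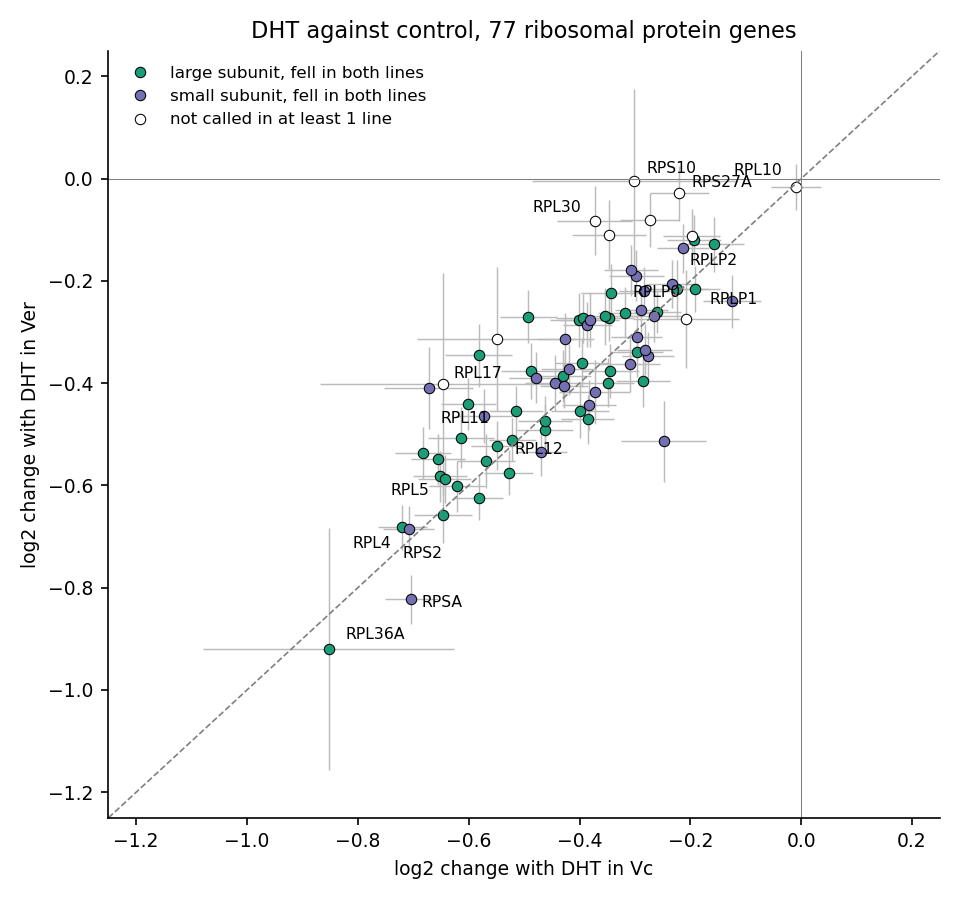
Log2 change with DHT against control in Vc (x axis) and Ver (y axis) for each of the 77 genes, with standard errors as grey lines, n = 2 libraries a group; filled points fell in both lines (large subunit green, small subunit purple), open points were not called in at least 1 line, and the dashed line marks equal change. All 77 points lie below 0 on both axes, from RPL36A at the lower left to RPL10 next to the origin.

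Other measures moved with DHT. Reads in no gene were 50.4% ± 0.342 (SD, n = 2) in Vc control and 47.0% ± 0.130 with DHT, and 48.8% ± 0.250 against 45.4% ± 0.213 in Ver. Mitochondrial genes took 2.84% ± 0.166 of gene counts in Vc control and 2.18% ± 0.0808 with DHT. The 8 luminal markers summed to 4135 to 4294 CPM in Vc control and 9227 to 9399 with DHT. Of these, 7 of 8 rose in Vc and 6 of 8 in Ver, where 21.8% and 21.2% of all genes tested rose. The 8 stromal and endothelial markers, of which none was at 0 in every library, summed to 16.3 to 17.9 CPM in Vc control and 2.87 to 4.78 with DHT, and to 53.1 to 60.6 and 3.83 to 4.52 in Ver. LUM made up most of the control sums: it was at 13.5 to 14.0 CPM in Vc control and 0.328 to 0.610 with DHT, and at 49.6 to 57.2 and 0.803 to 1.2 in Ver. Of the 4 tested, LUM and PDGFRB fell in both lines, whereas COL1A1 (log2 change 0.33 and 0.13) and VWF (1.81 and 1.29) were not called. The 6 immune markers summed to 1.69 to 1.78 CPM in Vc control and 0.813 to 1.31 with DHT, and to 0.776 to 1.61 and 0.357 to 0.923 in Ver, where the groups overlapped. The 1 immune marker tested, CD14, fell in both lines, with log2 changes of -2.27 and -3.19 (edgeR adjusted p = 0.0104 and 0.00661). It was at 0.089 to 1.61 CPM in these libraries. The part of these in the fall of the ribosomal protein genes was not tested.

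Adding enzalutamide to DHT raised many of the ribosomal protein genes again. Against DHT alone, 43 of 77 rose in Vc and 0 fell, where 11.5% of all genes tested rose, with a median log2 change of 0.15 against 0.02 over all genes. In Ver 52 of 77 rose and 0 fell, where 13.7% of all genes rose, with a median of 0.18 against 0.02. The Vc count was 26 without DHT library 1 and 27 without both-compound library 2, and with library totals alone 62 and 68 rose, while calls over all genes went from 2588 higher and 2471 lower to 3290 and 1806 in Vc and from 3098 and 2978 to 4126 and 2104 in Ver. RPSA reached 657.8 and 684.7 CPM in Vc and 664.6 and 638.7 in Ver, above its DHT libraries and below its control libraries, with a rise of 0.39 ± 0.05 (edgeR adjusted p = 6.68e-12) and 0.41 ± 0.05 (8.04e-13). RPS2 rose by 0.29 in Vc and 0.37 in Ver, RPL4 by 0.30 and 0.29, and RPL5 by 0.33 and 0.18. The largest estimate in Ver was RPL36A (0.80 ± 0.24, edgeR adjusted p = 0.00624), a call lost without Ver DHT library 2 (0.11) or both-compound library 2 (0.0519). In Vc it was RPS10 (0.51 ± 0.18, 0.0299 by edgeR), which was 0.06 with the counts of its pseudogenes added. The RPS10 call was also lost with DESeq2 (DESeq2 adjusted p = 0.108), without both-compound library 1 (0.30, edgeR adjusted p = 0.436), without DHT library 1 (0.228) and without DHT library 2 (0.0629). RPLP0 rose by 0.15 in Vc, a call lost without DHT library 1 (edgeR adjusted p = 0.213) and without both-compound library 2 (0.0625), and had 0.07 ± 0.04 in Ver (0.231).

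The return was partial. Against control, both compounds together left 67 of 77 genes lower in Vc and 0 higher, where 13.2% of all genes were lower, with a median of -0.25 against -0.01 over all genes. In Ver 49 of 77 were lower and 0 higher, where 10.3% of all genes were lower, with a median of -0.17 against -0.02; the Ver count was 32 without control library 2. With library totals alone the medians of all genes were -0.11 in Vc and -0.12 in Ver, 73 and 64 members were lower, and calls over all genes were 2553 higher and 4133 lower in Vc (3451 and 2967 with TMM) and 1977 and 3427 in Ver (2788 and 2329 with TMM). The largest falls in Vc were RPS23 (-0.49), RPL11 (-0.46), RPL27A (-0.46), RPL23A (-0.45) and RPL24 (-0.42). In Ver they were RPSA (-0.41), RPL5 (-0.41), RPL4 (-0.39), RPL7 (-0.37) and RPL23 (-0.33). Taking both lines at once, 39 of 77 genes lay in 3 steps with no overlap, the 4 control libraries above the 4 with both compounds and those above the 4 with DHT, against 4.39% of all genes tested. RPL3, RPL4, RPL5, RPL11, RPL12, RPLP0, RPLP1, RPS2, RPS3, RPS6, RPS19 and RPSA were among them. For 41 of 77 genes the 4 both-compound libraries lay above the 4 DHT libraries (10.9% of all genes), and for 51 they lay below the 4 control libraries (10.4%). With both compounds the 8 luminal markers summed to 7676 to 7813 CPM in Vc and 6820 to 6991 in Ver, and the 8 stromal and endothelial markers to 6.08 to 8.35 and 20.3 to 30.7 CPM, of which LUM was 3.44 to 4.66 and 17.3 to 23.9. LUM was lower than in control in both lines, and VWF was higher (2.41 in Vc and 2.25 in Ver, log2). The part of these markers in the changes was not tested. These comparisons share the DHT or the control libraries, so their values stand side by side only.

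**Figure D4:**
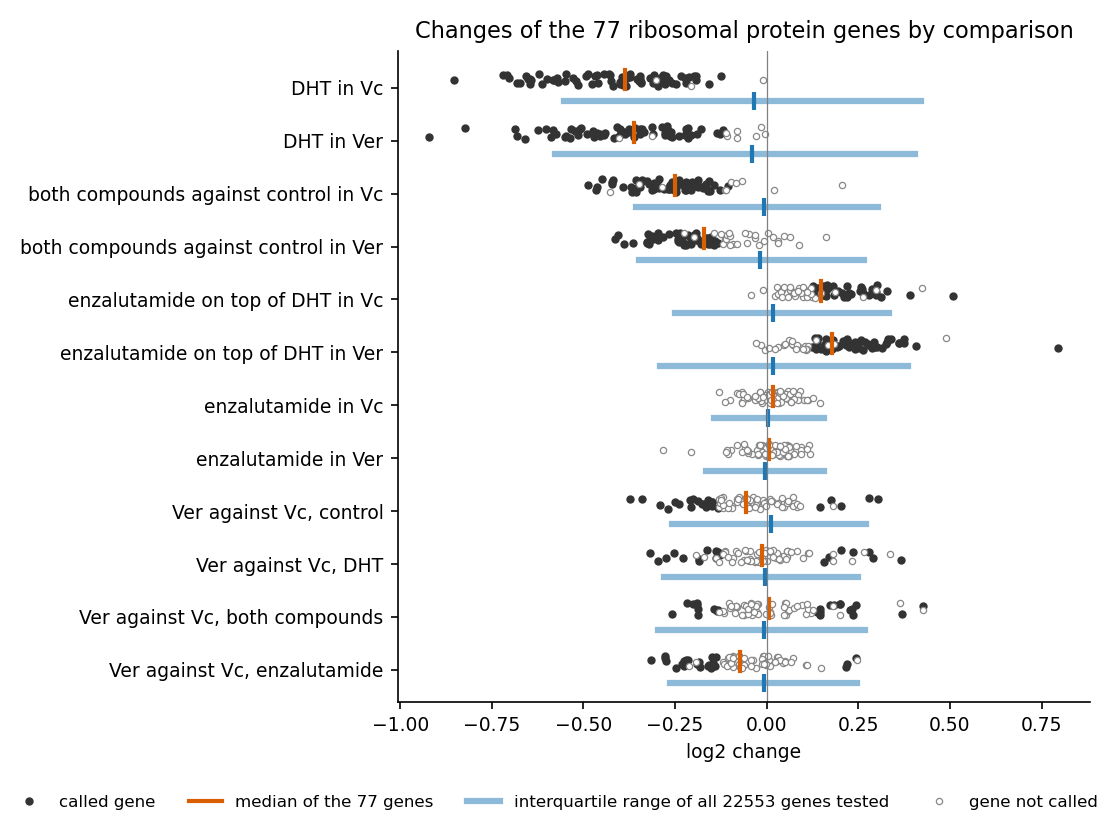
Log2 change (x axis) of the 77 genes in 12 comparisons (y axis): filled points were called by edgeR, open points were not, orange bars are medians of the 77, and blue bars with a tick show the interquartile range and median of all 22553 genes tested. The medians of the 77 genes sit at -0.39 and -0.36 with DHT, at 0.15 and 0.18 with enzalutamide on top of DHT, and near 0 with enzalutamide alone.

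Enzalutamide alone, in cells without hormone, moved none of the 77 genes past the threshold. In Vc edgeR called 0, where 0.537% of all genes were, with a median of 0.02 against 0.004 over all genes; 6 had an unadjusted p under 0.05, and DESeq2 called 1, RPSA (0.14, DESeq2 adjusted p = 0.0308). A fit of these 2 groups alone called RPSA and RPLP0. In Ver edgeR called 0, where 1.13% of all genes were, with a median of 0.01 against -0.01, 2 had an unadjusted p under 0.05 and DESeq2 called 0. Without Ver enzalutamide library 2, 1 was called, RPL41. RPSA was at 929.8 and 915.0 CPM in Vc with enzalutamide and at 981.1 and 894.9 in Ver, above its control libraries in each line, with 0.15 ± 0.05 (edgeR adjusted p = 0.202) and 0.11 ± 0.05 (0.384). RPSA was also the 1 gene of 77 that had 4 enzalutamide libraries above 4 control libraries, against 1.42% of all genes tested.

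Between the lines the median difference of the ribosomal protein genes was small, from -0.07 to 0.01. The share called was above that of all genes in places. In control and with enzalutamide 26.0% of members were lower in Ver, and with both compounds 18.2% were higher. A few genes were called the same way under every treatment. In control medium 5 of 77 were higher and 20 lower in Ver than in Vc, where 9.13% of all genes were higher and 9.73% lower, with a median of -0.06 against 0.01 over all genes. With DHT 7 were higher and 12 lower (7.9% and 9.37% of all genes), with a median of -0.01. With enzalutamide 3 were higher and 20 lower (7.88% and 8.69%), with a median of -0.07, and with both compounds 14 higher and 10 lower (9.28% and 11.0%), with a median of 0.01. Under library totals alone the splits were 9 and 9 with DHT, 6 and 14 with enzalutamide and 22 and 6 with both compounds, and DESeq2 size factors gave 8 and 9 with DHT. These counts rest on few libraries: in control medium 20 lower became 10 without Vc control library 1 and 11 without Ver control library 1, and 5 higher became 3 without Vc control library 1 and 2 without Ver control library 2. With DHT 12 lower became 7 without Ver DHT library 2, and with enzalutamide 3 and 20 became 6 and 13 without Ver enzalutamide library 2. With both compounds 14 higher became 6 without Vc library 1 and 5 without Ver library 2, and 10 lower became 6 without Vc library 2 and 4 without Ver library 1.

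RPL8, a large-subunit protein near the peptide bond centre, was higher in Ver under each of the 4 treatments. It was at 598.6 and 595.2 CPM in Vc control and 712.8 and 759.4 in Ver control, and at 441.2 and 425.4 against 541.1 and 518.9 with DHT. The Ver libraries lay above the Vc libraries in each treatment, and the log2 differences were 0.30 ± 0.05 in control (edgeR adjusted p = 1.39e-07), 0.29 ± 0.05 with DHT, 0.24 ± 0.05 with enzalutamide and 0.43 ± 0.05 with both compounds. RPS29 was the other gene higher in Ver in all 4, by 0.18, 0.28, 0.22 and 0.24; its call in control was lost without Vc control library 1 (edgeR adjusted p = 0.139) and without Ver control library 2 (0.0607). That is 2 of 77 genes, against 2.76% of all genes tested. RPL8 lies at chr8:144789765-144792587 (GRCh38, GENCODE 29), and of 120 other genes tested within 5 Mb of it 52 (43.3%) were higher and 0 lower in Ver control, where 9.13% of all genes were higher. Of 66 such neighbours of RPS29, 9 (13.6%) were higher and 0 lower.

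RPL4, RPL13A, RPL14, RPL28 and RPL31 were lower in Ver under all 4 treatments, 5 of 77 against 3.72% of all genes tested. RPL4 was lower by 0.29, 0.25, 0.28 and 0.26 in control, DHT, enzalutamide and both compounds, on the log2 scale with an SE of 0.04, and the Vc and Ver libraries did not overlap. RPL31, at the rim of the exit tunnel, was at 590.1 and 558.1 CPM in Vc control and 440.8 and 465.3 in Ver control, a log2 difference of -0.34 ± 0.05 (edgeR adjusted p = 9.86e-09). RPL13A, named also for a role in silencing of inflammatory messages, was at 2783 and 2742 CPM in Vc control and 2266 and 2410 in Ver control, a difference of -0.24 ± 0.04. RPL14 and RPL28 differed by -0.27 and -0.16 in control. The calls of RPL4 and RPL8 held in all 4 treatments under every alternative run; RPL14 with DHT, RPL28 in control and RPL13A, RPL28 and RPL31 with both compounds each lost the call without at least 1 library (edgeR adjusted p up to 0.365), RPL13A and RPL28 with both compounds also with library totals alone (0.125 and 0.213). RPL28 with both compounds was also not called with DESeq2 size factors (edgeR adjusted p = 0.0588), without the low-count filter (0.0733) or by DESeq2 (0.0536). The numbers of neighbours within 5 Mb that were lower in Ver control were 12 of 121 (9.92%) for RPL4, 59 of 316 (18.7%) for RPL13A, 15 of 90 (16.7%) for RPL14, 57 of 285 for RPL28 and 14 of 76 (18.4%) for RPL31, where 9.73% of all genes were lower. RPL13A and RPL28 lie on the same chromosome and their windows overlap, so their neighbours are not separate sets. RPL37A was lower in Ver by 0.37 in control, 0.32 with DHT and 0.32 with enzalutamide, and by 0.10 with both compounds, where it was not called. The summed stromal and endothelial markers were at 53.1 to 60.6 CPM in Ver control and 16.3 to 17.9 CPM in Vc control. Of the 4 tested, 1 was called, LUM, which made up most of both sums, and its part in these differences was not tested.

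**Figure D5:**
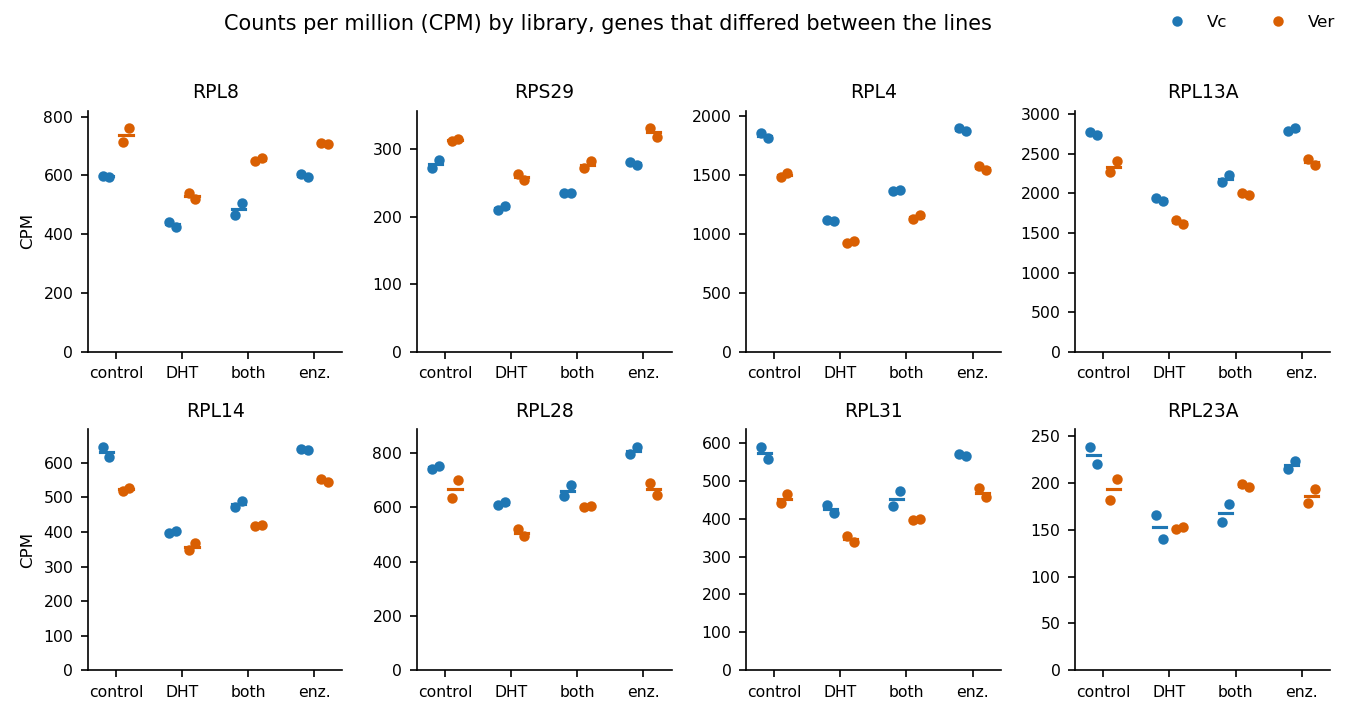
Level in CPM (y axes, each from 0) of 8 ribosomal protein genes in the 16 libraries (points), by treatment (x axes; both is DHT plus enzalutamide, enz. is enzalutamide) and line (Vc blue, Ver orange); bars are means of n = 2. RPL8 and RPS29 are higher in Ver under each treatment, RPL4, RPL13A, RPL14, RPL28 and RPL31 lower, and RPL23A is lower in Ver control and higher with both compounds.

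The responses of the lines were compared by testing their difference. For DHT 0 of 77 genes were called, where 2.32% of all genes were; 10 had an unadjusted p under 0.05, DESeq2 called 1, RPL22 (0.23, DESeq2 adjusted p = 0.0484), and the differences ran from -0.27 to 0.30 with a median SE of 0.07. For enzalutamide alone 0 were called (0.0222% of all genes), with 4 at an unadjusted p under 0.05 and 0 by DESeq2. For enzalutamide on top of DHT 0 were called (1.29% of all genes), with 10 at an unadjusted p under 0.05 and 1 by DESeq2, RPL37A (DESeq2 adjusted p = 0.0279). Leaving out single libraries gave up to 2 calls for DHT (RPL22 and RPL23A) and for enzalutamide on top of DHT (RPS15 and RPS28, or RPL11 and RPL23A). A comparison added after seeing the data, of the response to both compounds against control, called 4 of 77 genes, where 1.78% of all genes were called. They were RPL23A, RPL11, RPL37A and RPL27A, each with a fall in Vc that was smaller or absent in Ver. Fewer were called whenever a single library of these groups was left out.

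Paralogues outside the naming rule moved in both directions under DHT. Of the 8 listed, 5 had enough reads to be tested. RPL36AL, the near-identical copy of RPL36A on another chromosome, was at 31.2 and 24.7 CPM in Vc control and 50.1 and 49.4 with DHT, and it rose by 0.83 ± 0.11 in Vc and by 1.03 ± 0.11 in Ver (edgeR adjusted p = 1.87e-11 and 9.18e-16). RPS27L, a copy of RPS27 known as a p53 target, rose by 0.86 ± 0.09 and 0.87 ± 0.09, while RPS27 had -0.20 and -0.11. RPL22L1 fell by 0.86 and 0.71, beside falls of 0.49 and 0.27 for RPL22. RPL7L1, which acts in ribosome assembly, fell by 0.38 and 0.28, and RPL26L1 had -0.05 ± 0.29 and 0.24 ± 0.30. With enzalutamide on top of DHT, RPL36AL and RPS27L fell in both lines, by 0.50 and 0.25 in Vc. FAU, which encodes a ubiquitin-like protein fused to a ribosomal protein, had -0.07 ± 0.05 and 0.09 ± 0.05 with DHT and was not called in either line.

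Most other messages known for a TOP tract also fell under DHT. Of 18 tested elongation factors and other TOP genes (19 listed), 17 fell and 1 rose in Vc, with a median of -0.50, and 16 fell and 1 rose in Ver, with a median of -0.49, where 22.5% and 22.9% of all genes fell. NPM1, a nucleolar chaperone, fell by 1.30 ± 0.05 and 1.00 ± 0.05, and was at 383.7 and 372.6 CPM in Vc control and 158.5 and 147.7 with DHT. EIF3E, a subunit of an initiation complex, fell by 1.13 and 0.89, and NAP1L1, a histone chaperone, by 0.94 and 0.80. EEF1A1, which brings aminoacyl-tRNA to the ribosome, fell by 0.22 and 0.23, a change chosen for mention after its values were seen. TPT1 was the exception and rose by 0.45 ± 0.05 and 0.55 ± 0.05. Of 11 tested host genes of small nucleolar RNAs with TOP starts, 10 fell in Vc (median -0.61) and 11 in Ver (-0.56), with SNHG16 falling by 1.62 and 1.55 and GAS5 by 0.51 and 0.46. With enzalutamide on top of DHT, 13 of the 18 TOP genes and 8 of the 11 host genes rose in Vc, and 11 and 9 in Ver, where 11.5% and 13.7% of all genes rose.

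The rest of the translation machinery was mixed. Of 29 initiation factors 12 rose and 7 fell with DHT in Vc (21.8% and 22.5% of all genes), with a median of 0.11, and 14 rose and 6 fell in Ver (21.2% and 22.9%). The 29 leave out EIF3E, EIF3F, EIF3H, EIF3L, EIF4A2 and EIF4B, which are counted among the TOP genes above. Each of these, listed here after their values were seen, fell in both lines. Their changes ran from -1.13 to -0.32 in Vc and from -0.89 to -0.26 in Ver. The balance of rises and falls thus depends on how the lists were split. The scaffold EIF4G2 rose by 0.68 and 0.65. Of 20 genes of the mTOR and LARP1 route 12 rose and 5 fell in Vc, with a median of 0.34, and 11 and 5 in Ver (0.40). DDIT4, which restrains mTOR, was at 19.6 and 16.9 CPM in Vc control and 73.1 and 73.3 with DHT, a rise of 2.0 ± 0.11, and rose by 2.18 ± 0.11 in Ver. SESN2, a leucine sensor of the same route, rose by 1.95 and 2.06, while its relative SESN3 fell by 1.61 and 1.5. MTOR itself rose by 0.87 and 0.88, and LARP1 fell by 0.20 and 0.15, the last 2 genes named after their values were seen. Of 9 tested chaperones and loading factors of ribosomal proteins, 3 fell in each line: NOB1, GRWD1 and RRS1. Of 77 tested mitochondrial ribosomal proteins, which serve a separate ribosome, 14 rose and 21 fell in Vc, with a median of -0.07, and 15 rose and 16 fell in Ver, with a median of 0.005.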

How the data were processed

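The 16 polyA RNA-seq libraries (8 groups of 2) were analysed. Per the submitters' processing notes, reads were handled with FastQC 0.11.7, Trimmomatic 0.36-5, HISAT2, SAMtools and HTSeq 0.11.1 on GRCh38. The authors deposited 1 file of raw read counts per gene for each library, and a table of normalized signal values, which are the counts divided by 1 size factor per library. The deposited signal table was used for gene names only, and the counts for all values. The annotation the authors used is not given in the sources used here; exon positions were taken from GENCODE 29 (58039 of 58302 IDs matched), and start windows from RefSeq (GRCh38.p14). The 5 summary lines were left out of library sizes.

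Counts were tested with edgeR 4.0.16 (R 4.3.3; limma 3.58.1): TMM scaling, filterByExpr, a quasi-likelihood fit of the 8 groups over 16 libraries, and Benjamini-Hochberg adjustment over the 22553 genes tested. A gene was called at adjusted p under 0.05. The common biological coefficient of variation was 6.01%, with 8 residual degrees of freedom. The procedure was tested on simulated data. Fold changes are log2 values with Wald standard errors, and CPM are TMM-scaled. Alternatives were DESeq2 1.42.0 (size factors and Wald test), library totals alone, TMM without the members, no low-count filter, only the compared groups, a replicate block, pseudogene counts added, and leaving out each library.

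The members, gene lists and tests were chosen with earlier results of these data known. Named were members of fixed roles, the 5 largest called rises and falls of a comparison, the 5 highest and lowest per kilobase, members behind counts of 5 or fewer, the listed paralogues, FAU, and the 3 smallest adjusted p of each other list; others are marked in the text. Some items are not reported here.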

Additional observations from a re-analysis of the deposited data

Results flagged for a closer look

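The test of the difference between the lines (Ver minus Vc) in the response to both compounds against control, a comparison added after seeing the data, called 4 of the 77 genes. RPL23A differed by 0.48 ± 0.09 (SE, log2; edgeR adjusted p = 6.33e-05): in Vc it went from 238.6 and 220.8 CPM in control to 158.8 and 177.6 with both compounds, and in Ver from 181.6 and 204.7 to 199.0 and 195.7. The change was -0.45 in Vc and 0.03 in Ver, and the call held under every alternative run, with values of 0.40 to 0.57. RPL23A shares 12.4% of its exon bases with other genes and has 91 named pseudogenes, and with their counts added the difference was 0.41 (edgeR adjusted p = 0.000276). RPL37A differed by 0.27 ± 0.07 (0.0141), RPL11 by 0.32 ± 0.08 (0.0217) and RPL27A by 0.25 ± 0.07 (0.0345), by edgeR. RPL37A and RPL11 had -0.29 and -0.46 in Vc, where both fell, and -0.02 and -0.14 in Ver, where neither was called, and RPL27A fell by 0.46 and 0.21. RPL11 in Ver was called lower with library totals alone (-0.24, edgeR adjusted p = 0.000686), in a fit of the 2 groups alone (0.0388) and without both-compound library 2 (-0.21, 0.032). Of the 8 fits that each left out 1 library, the call of the difference was lost in 7 for RPL27A, 6 for RPL11 and 5 for RPL37A. It was also lost for RPL11 with DESeq2 (DESeq2 adjusted p = 0.232) and for RPL27A without the low-count filter (edgeR adjusted p = 0.0599).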

How the results depend on the processing

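The falls with DHT, the rises with enzalutamide on top of DHT and the falls with both compounds kept their direction under every alternative run, and no result changed sign among those called. Scaling by library totals alone moved the members' median log2 change to -0.56 and -0.55 with DHT in Vc and Ver, 0.22 and 0.27 with enzalutamide on top of DHT, -0.36 and -0.27 with both compounds, -0.0209, -0.0338 and 0.0498 for Ver against Vc in control, enzalutamide and both compounds, and 0.0443 for the difference in the enzalutamide effect on top of DHT; members higher in Ver were 6 with enzalutamide and 22 with both compounds, where 6 were lower. With DESeq2, 1 gene each was called for enzalutamide in Vc, the difference in DHT response and the difference in the enzalutamide effect on top of DHT, and with only the compared groups 2 for enzalutamide in Vc and 1 for the difference in DHT response. For Ver against Vc with both compounds the median was -0.0239 with pseudogene counts added and -0.0229 with only members that share at most 10% of exon bases, of which 9 were higher. The causes were not tested.

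With all counted reads as the denominator, which also holds reads in no gene, the share was 2.36%, 1.94%, 1.70% and 2.43% in Vc (control, both compounds, DHT, enzalutamide) and 2.38%, 2.07%, 1.72% and 2.44% in Ver. With pseudogenes added it was 5.70%, 4.48%, 3.83% and 5.86% in Vc, and 5.60% and 4.58% in Ver control and both compounds. With at least 6 pyrimidines, 58.1% of members had the run at the start.

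Leaving out 1 library at a time gave 26 to 33 rises with enzalutamide on top of DHT in Vc, and 32 to 46 falls with both compounds in Ver. For Ver against Vc it gave 2 to 5 higher and 10 to 16 lower in control, 7 to 9 lower with DHT, 2 to 6 higher and 13 to 16 lower with enzalutamide (median -0.0733 to -0.0463), and 5 to 14 higher and 4 to 8 lower with both compounds (median -0.0301 to 0.0084). The DHT median in Ver ran from -0.40 to -0.33. Enzalutamide in Ver gave 0 to 1 higher, with a median of -0.0163 to 0.041. The differences between the lines gave 0 to 2 higher for DHT, 0 to 2 for enzalutamide on top of DHT (median -0.0006 to 0.0508), and 1 to 3 for both compounds (median 0.0519 to 0.11), and the median for enzalutamide alone ran from -0.0285 to 0.0195. In these fits a lone library is assumed to vary like the other groups. Of 1816 alternative values of single named genes, 1684 kept their call, 107 lost it and 25 gained it.

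No strong pairing of libraries by replicate number was seen. Over 28 pairs of groups, same-numbered deviations correlated at -0.12 to 0.12, and 1 pair was over 0.1. Such weak correlations cannot show that pairing was absent. With a replicate block 74 and 67 members fell with DHT (medians -0.39 and -0.36), 43 and 52 rose with enzalutamide on top of DHT, and 67 and 49 fell with both compounds. With 2 libraries a group, a change needed to be large against the spread to be called, and members under 30 CPM carried the widest errors.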
